A study of Mus musculus with 14 samples.

Results

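The 10 genes described here make up the lipoprotein lipase system and the fatty acid uptake route of brown fat: Lpl, Gpihbp1, Angptl4, Lmf1, Cd36, Fabp3, Fabp4, Slc27a1, Slc27a2 and Vldlr. They were taken from a list of names, matched by symbol to the Ensembl identifiers of the expression table. The rule itself holds no measured value, but the list was chosen with earlier results of these data known. The calls below are therefore not an independent test of these genes. All 10 were found among the 35275 genes of the table, and all 10 passed the filter on low values. RNA had been sequenced from brown adipose tissue of 8-week-old C57BL/6 mice, in 14 libraries. Every mouse carried floxed alleles of Lrpprc (LrpprcFF), which encodes a mitochondrial protein that keeps mitochondrial messenger RNAs stable. Knockouts also carried Ucp1-Cre, a Cre transgene driven by the promoter of Ucp1, which is active in brown and beige fat cells. Endothelial cells, macrophages and other cells without Ucp1 expression therefore lie outside the designed deletion. Each genotype had 4 libraries from housing at 22 °C (room temperature) and 3 from housing at 30 °C (thermoneutrality). Brown adipocytes are the cell type on the labels, but the RNA came from homogenized tissue and the labels give no step that isolates cells. In such bulk samples, fewer cells of a type and less RNA per cell cannot be told apart. Each library has an identifier of its own. Beyond that, the labels do not say that replicates are separate animals, so the p-values measure only the spread between these libraries.

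Lipoprotein lipase is secreted by adipocytes and carried to the capillary surface, where it splits the triglycerides of circulating lipoproteins. The fatty acids released are taken up with the help of membrane proteins and bound inside the cell by small carrier proteins. Brown fat burns fatty acids to make heat, and its lipoprotein lipase activity is known to be raised in the cold and curbed by the inhibitor ANGPTL4 in warmth.

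Each library held an estimated 15.8 to 21.4 M fragments, from the spacing of its lowest values and transcript lengths of a reference annotation. Levels are given as scaled FPKM, the deposited fragments normalised to gene length and depth, after a correction for library composition (scaling factors of 0.823 to 1.20). Lrpprc had 25.3 to 57.3 scaled FPKM in room-temperature controls and 8.84 to 11.2 in room-temperature knockouts. At thermoneutrality it had 30.3 to 32.7 in controls and 4.97 to 8.56 in knockouts, so its level followed the labels in all 4 groups. Identifiers of 2 room-temperature controls (replicates 3 and 4) begin with R and those of all others with E. The summed level of 12 skeletal muscle markers was 8320 and 4806 scaled FPKM in these 2 controls, and 709 and 549 in the other 2. Over all 14 libraries that sum ran from 42.1 to 16227. Ucp1, the defining gene of brown fat, had 1308 to 3358 scaled FPKM at room temperature and 269 to 1073 at thermoneutrality. Sex-linked transcripts separated the temperatures completely: Xist had at least 9.01 deposited FPKM in every thermoneutral library and at most 0.0141 at room temperature. In every comparison between temperatures, the interaction included, temperature cannot be told apart from sex.

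The 10 genes covered a wide range of levels, which FPKM allows to be compared between genes because it is per length. In room-temperature controls Fabp4 stood at the top with 12258 ± 1300 scaled FPKM (SD, n = 4), above Lpl with 1335 ± 227. Fabp3 (516 ± 99.2) and Cd36 (506 ± 84.7) followed, and their ranges overlapped. Slc27a1 came next with 198 ± 48.5. Angptl4 (86.5 ± 45.4), Slc27a2 (85.6 ± 12.2) and Gpihbp1 (70.8 ± 31.0) formed a run in which each neighbour overlapped the next. Vldlr (34.2 ± 10.4) and Lmf1 (14.8 ± 2.07) were lowest, and their ranges did not overlap. The order differed in thermoneutral controls: Fabp3 with 1275 ± 165 scaled FPKM (SD, n = 3) lay above Lpl with 655 ± 18.7, and Angptl4 with 352 ± 55.7 overlapped Cd36 with 347 ± 21.7. There Vldlr (14.8 ± 0.753) lay under Lmf1 (21.2 ± 2.40).

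Fabp4 encodes the adipocyte fatty acid binding protein, which is also made by macrophages and capillary endothelium. In room-temperature knockouts it was the most abundant transcript of all genes by FPKM in 4 of 4 libraries. In the 7 control libraries it ranked 5 or 6, with 4 or 5 mitochondrial transcripts above it, and in thermoneutral knockouts it ranked 2, 1 and 3. Fabp4 alone made up 1.30% to 2.24% of the summed FPKM in controls and 0.940% to 2.27% in knockouts.

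**Figure D1:**
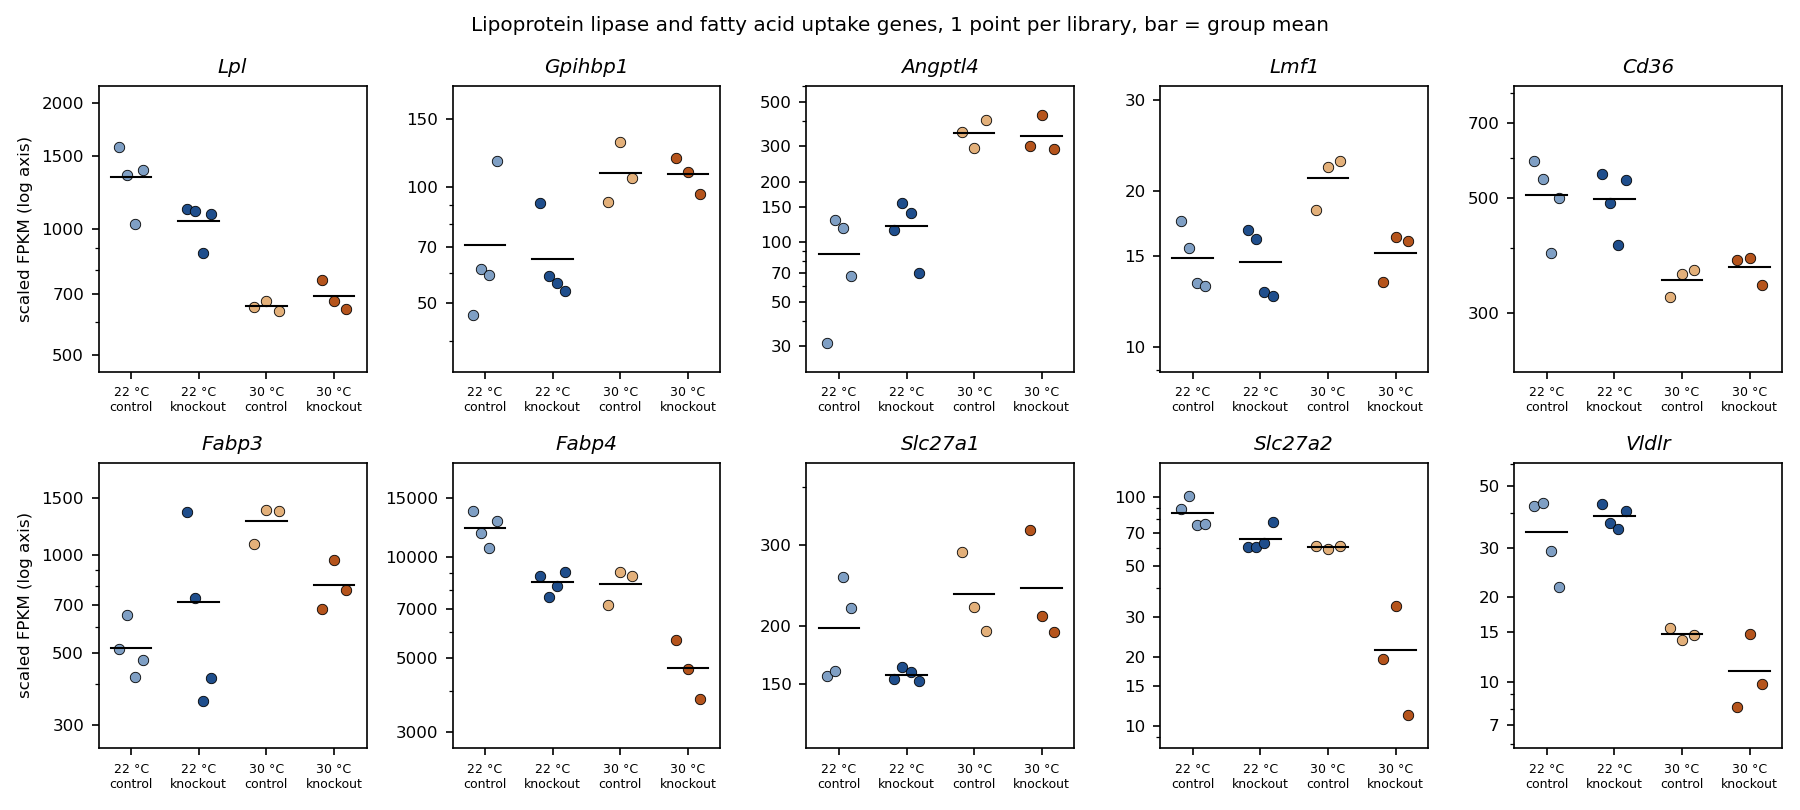
Scaled FPKM (log axis, a separate range for each gene) of the 10 genes in the 14 libraries, by housing temperature and genotype; each point is a library and each bar a group mean. Slc27a2 in the 3 thermoneutral knockouts (11.2 to 33.6) lies under every other library, and Angptl4 is higher in all 6 thermoneutral libraries than in all 8 at room temperature.

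The comparison of knockouts with controls at thermoneutrality asked which of these transcripts changed without Lrpprc when heat production was not required. Slc27a2 and Fabp4 fell, and the other 8 did not pass. This made 2 of 10 genes called by limma at an adjusted p under 0.05, where 14.1% of all 13079 tested genes were called. Both were lower, as were 5.28% of all genes. With FPKM as deposited, 4571 of all genes were called, 4280 of them higher, against 1845 with 691 lower here. The ranges of the groups did not overlap for 4 of 10 genes (Slc27a2, Fabp4, Lmf1 and Fabp3, each lower in knockouts), against 36.8% of all genes. With 10 genes, these counts lay near the shares for all genes. The median log2 fold change of the 10 was -0.25 and that of all tested genes 0.065.

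Slc27a2 (ENSMUSG00000027359) encodes FATP2, a very long-chain acyl-CoA synthetase that also takes part in fatty acid transport. It had 61.3, 59.2 and 61.5 scaled FPKM in the thermoneutral controls and 19.7, 33.6 and 11.2 in the knockouts. The 3 controls lay close together, and all 3 knockouts lay well under them with a wider spread. Its log2 fold change was -1.58 (SE 0.27, 95% interval -2.16 to -1.0, limma adjusted p = 0.00323), a fold of 0.335. It passed in all 10 alternative settings and in the 6 fits that each left out a library of this comparison, from -1.95 to -1.20. At room temperature Slc27a2 had 89.2, 101, 75.6 and 76.3 scaled FPKM in controls and 60.6, 60.6, 63.1 and 77.8 in knockouts. These ranges overlapped through the knockout at 77.8, and the log2 fold change was -0.38 (95% interval -0.88 to 0.12, limma adjusted p = 0.468). The difference between the effects in the 22 °C and 30 °C libraries, which also differ in sex-linked transcripts, was 1.20 (95% interval 0.44 to 1.97, limma adjusted p = 0.213), which did not pass. It passed with sample weights (1.38, limma adjusted p = 0.0461) and without thermoneutral knockout 2, the knockout with 33.6 (1.58, limma adjusted p = 0.0307).

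Its relative Slc27a1 (ENSMUSG00000031808), which encodes FATP1, the form known from fat and muscle, did not pass. It had 289, 220 and 195 scaled FPKM in thermoneutral controls and 323, 210 and 195 in knockouts, almost the same set of values. This gave a log2 fold change of 0.03 (95% interval -0.44 to 0.50, limma adjusted p = 0.949). In deposited FPKM, the ratio of Slc27a1 to Slc27a2 within a library, which does not depend on the scaling, was 4.72, 3.72 and 3.18 in thermoneutral controls. It was 16.4, 6.25 and 17.3 in thermoneutral knockouts, above every control, and 1.58 to 3.39 in the 8 room-temperature libraries. At room temperature Slc27a1 had 156, 160, 256 and 219 scaled FPKM in controls and 154, 163, 160 and 153 in knockouts. The 2 higher controls are those with R identifiers and with the higher sums of skeletal muscle markers; the part of muscle in these values was not tested. For the knockout at room temperature the log2 fold change was -0.30 (95% interval -0.71 to 0.11, limma adjusted p = 0.486), and -0.01 without those 2 controls.

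The bases before the start sites of these 2 paralogues are shown because 1 fell at thermoneutrality and the other did not pass the test. They are the 250 bases before a start annotated by RefSeq on GRCm38.p6, on the plus strand, with each CG dinucleotide in capitals; for Slc27a1 it is the first of 3 annotated starts. The submitters' processing notes list mm9, another build, and the expression table holds no coordinates. The Slc27a2 bases are at chr2:126552774-126553023 and hold 19 CG dinucleotides, with a GC content of 64.0%. Those of Slc27a1 are at chr8:71568621-71568870 and hold 8 CG dinucleotides, with a GC content of 66.4%.
Slc27a2: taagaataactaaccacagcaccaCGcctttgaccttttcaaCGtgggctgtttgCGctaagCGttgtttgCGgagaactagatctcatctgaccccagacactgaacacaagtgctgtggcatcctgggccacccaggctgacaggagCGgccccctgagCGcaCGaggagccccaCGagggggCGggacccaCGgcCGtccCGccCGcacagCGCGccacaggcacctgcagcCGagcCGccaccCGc
Slc27a1: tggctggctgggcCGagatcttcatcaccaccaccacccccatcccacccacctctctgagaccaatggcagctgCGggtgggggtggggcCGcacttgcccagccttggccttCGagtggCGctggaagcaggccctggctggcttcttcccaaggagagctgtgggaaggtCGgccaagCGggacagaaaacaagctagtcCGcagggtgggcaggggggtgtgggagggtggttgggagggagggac
PPAR factors with RXR bind the DR1 motif, 2 copies of AGGTCA spaced by 1 base (AGGTCANAGGTCA). Windows from 250 bases before to 50 after a start were searched on both strands, with at most 1 mismatch. The table held 9 windows of 6 of the 10 genes (Slc27a2, Fabp3, Cd36, Slc27a1, Lmf1 and Vldlr), and 0 of the 9 had a match, against 0.55% of 32851 windows of all genes. This says only that these letters are not in these windows.

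Fabp4 (ENSMUSG00000062515) had 7183, 9050 and 8805 scaled FPKM in thermoneutral controls and 5660, 4625 and 3763 in knockouts. Every knockout lay under every control. Fabp4 fell with a log2 fold change of -0.85 (SE 0.18, 95% interval -1.23 to -0.46, limma adjusted p = 0.00901), a fold of 0.556. The call held in each of the 6 fits that left out a library (limma adjusted p from 0.0108 to 0.0432), but not with the 2 groups alone (limma adjusted p = 0.0635) or with no filter on low values (0.281). Under quantile normalization the direction turned (1.49, limma adjusted p = 0.00329): that method gives a gene the mean value of its rank, and Fabp4 ranked 5 or 6 in controls and 1 to 3 in knockouts. At room temperature Fabp4 had 13709, 11846, 10676 and 12801 scaled FPKM in controls and 8779, 7604, 8229 and 9031 in knockouts, again with no overlap. Here the log2 fold change was -0.54 (SE 0.15, 95% interval -0.87 to -0.21, limma adjusted p = 0.0966), which did not pass. It passed with the filter at a mean of 5 FPKM (-0.54, limma adjusted p = 0.048) and with sample weights (-0.56, 0.0335), and under quantile normalization the direction turned here too (2.05, 0.000165). The fold changes at the 2 temperatures differed by 0.31 (95% interval -0.20 to 0.82, limma adjusted p = 0.632).

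Fabp3 (ENSMUSG00000028773) encodes the heart-type carrier, which is made in muscle and in active brown fat. Its levels were 1085, 1378 and 1363 scaled FPKM in thermoneutral controls and 680, 966 and 781 in knockouts, with no overlap. The log2 fold change was -0.66 (95% interval -1.48 to 0.15, limma adjusted p = 0.281) and did not pass. At room temperature Fabp3 had 514, 653, 422 and 474 scaled FPKM in controls and 1355, 735, 355 and 417 in knockouts, so that the knockouts lay both above and below all controls. The log2 fold change there was 0.28 (95% interval -0.42 to 0.99, limma adjusted p = 0.726), and without the knockout at 1355 it was -0.09. That library had the lowest skeletal muscle sum of its group, 671 scaled FPKM against 1250 to 1732 in the other 3. It had the highest sum of 8 brown adipocyte markers of all 14 libraries, 8063 against 4902 to 6113 in the other 3 room-temperature knockouts. The part of cell content in its Fabp3 level was not tested. The ratio of Fabp4 to Fabp3 was 26.7, 18.1, 25.3 and 27.0 in room-temperature controls and 6.48, 10.3, 23.2 and 21.7 in knockouts. In thermoneutral controls it was 6.62, 6.57 and 6.46, a narrow band, and in thermoneutral knockouts 8.32, 4.79 and 4.82.

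Lmf1 (ENSMUSG00000002279) encodes a factor of the endoplasmic reticulum needed to fold lipoprotein lipase. It had 18.4, 22.3 and 22.8 scaled FPKM in thermoneutral controls and 13.3, 16.3 and 16 in knockouts, with all knockouts lower. The log2 fold change of -0.45 (95% interval -0.77 to -0.13, limma adjusted p = 0.0584) did not pass. It passed with sample weights (-0.44, limma adjusted p = 0.02), under quantile normalization (-0.54, 0.0365) and in the fit without the controls with R identifiers (-0.45, 0.0395). At room temperature the values were 17.5, 15.5, 13.3 and 13.1 in controls and 16.8, 16.2, 12.8 and 12.5 in knockouts, which overlap almost fully (log2 fold change -0.03, 95% interval -0.30 to 0.25).

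Lpl (ENSMUSG00000015568), the lipase itself, had 651, 675 and 638 scaled FPKM in thermoneutral controls and 756, 673 and 644 in knockouts. These sets overlapped, with a log2 fold change of 0.07 (95% interval -0.26 to 0.41, limma adjusted p = 0.799). Angptl4 (ENSMUSG00000002289), its secreted inhibitor, had 355, 295 and 406 in controls and 300.01, 430 and 290 in knockouts. Its log2 fold change was -0.06, but with a 95% interval of -1.0 to 0.87 (limma adjusted p = 0.947). Changes of nearly 1 on the log2 scale in either direction thus lay within or at the edge of the interval. Gpihbp1 (ENSMUSG00000022579) encodes the capillary protein that carries the lipase across the endothelial cell. It had 91.2, 130 and 105 scaled FPKM in controls and 118, 109 and 95.6 in knockouts, which overlapped (log2 fold change -0.01, 95% interval -0.61 to 0.60). Cd36 (ENSMUSG00000002944), a fatty acid receptor of adipocytes, endothelium and macrophages, had 322, 357 and 362 in controls and 380, 382 and 340 in knockouts (log2 fold change 0.08, 95% interval -0.26 to 0.42). Vldlr (ENSMUSG00000024924), a receptor that binds triglyceride-rich lipoproteins, had 15.5, 14.05 and 14.7 in controls and 8.09, 14.9 and 9.83 in knockouts. The knockout at 14.9 lay within the controls and the other 2 lay below them (log2 fold change -0.44, 95% interval -0.95 to 0.07, limma adjusted p = 0.249). Vldlr passed with sample weights (-0.51, limma adjusted p = 0.0329).

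**Figure D2:**
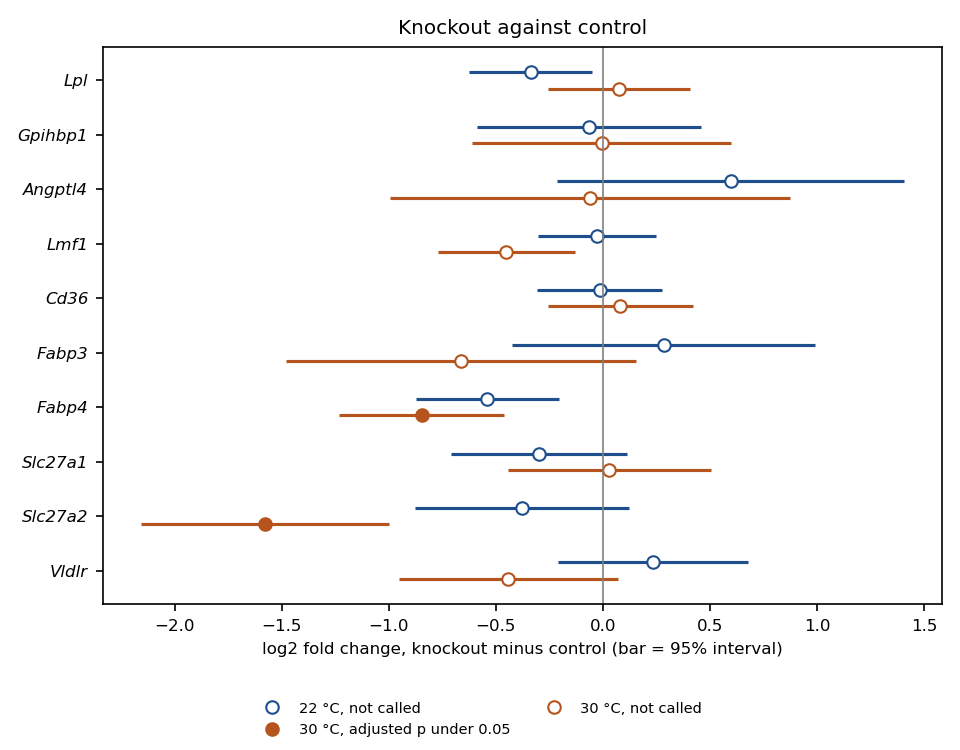
Log2 fold change of knockouts against controls for each gene at 22 °C and at 30 °C, with 95% intervals from limma; filled points have an adjusted p under 0.05. Slc27a2 (-1.58) and Fabp4 (-0.85) at 30 °C are the only filled points.

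The same comparison at room temperature asked what changed under mild cold. By limma 0 of 10 genes were called, where 1.97% of all genes were. At an unadjusted p under 0.05 there were 2, Lpl and Fabp4, and 2060 over all genes. The ranges did not overlap for 1 of 10 genes, Fabp4, against 9.38% of all genes. The median log2 fold change was -0.05, and that of all genes 0.0024.

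Lpl had 1573, 1349, 1027 and 1389 scaled FPKM in room-temperature controls and 1118, 1108, 879 and 1089 in knockouts. A single control, at 1027, lay within the range of the knockouts. The log2 fold change was -0.34 (95% interval -0.63 to -0.05, limma adjusted p = 0.23), and with FPKM as deposited it was -0.03, a scale on which the median of all genes was 0.24. Cd36 had 590, 544, 392 and 500 scaled FPKM in controls and 558, 489, 406 and 542 in knockouts (log2 fold change -0.02, 95% interval -0.31 to 0.28). Within a library the ratio of Cd36 to Lpl was 0.375, 0.403, 0.382 and 0.360 in controls and 0.499, 0.442, 0.462 and 0.498 in knockouts, with no overlap; a ratio does not depend on the scaling. At thermoneutrality the same ratio was 0.495 to 0.568 in controls and 0.502 to 0.568 in knockouts.

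Angptl4 had 31.3, 129, 118 and 67.6 scaled FPKM in room-temperature controls and 114, 156, 139 and 69.5 in knockouts (log2 fold change 0.59, 95% interval -0.21 to 1.40, limma adjusted p = 0.482). Gpihbp1 had 46.5, 61.2, 59.2 and 116 in controls and 91.0, 59.0, 56.5 and 53.8 in knockouts (log2 fold change -0.07, 95% interval -0.59 to 0.46). The control at 116 also had the highest sum of 12 endothelial markers of its group, 558 scaled FPKM against 238 to 292 in the other 3. The knockout at 91.0 had the highest sum of its group, 394 against 276 to 356. The part of endothelial content in these values was not tested. Vldlr had 42.4, 43.3, 29.3 and 21.8 in controls and 43.3, 36.9, 35.1 and 40.8 in knockouts (log2 fold change 0.23, 95% interval -0.21 to 0.68). The 2 lower controls are those with R identifiers, and without them the log2 fold change was -0.14.

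Whether genotype mattered differently in the 22 °C than in the 30 °C libraries was tested as an interaction, in which temperature and sex cannot be told apart. By limma 0 of 10 genes were called, as were 0% of all genes. At an unadjusted p under 0.05 there were 2 of the 10, Slc27a2 and Lmf1, and 1694 of all genes.

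Housing temperature was compared within each genotype because brown fat of mice makes more heat at 22 °C than at 30 °C. All thermoneutral libraries had Xist, a transcript of the inactive X chromosome, and at most 0.0244 deposited FPKM of the Y-linked Ddx3y. Every room-temperature library had at least 14.5. The values that follow therefore carry both differences. In controls 7 of 10 genes were called by limma, where 38.8% of all genes were. Of these 4 were higher at room temperature (Lpl, Cd36, Fabp4 and Vldlr; 18.2% of all genes) and 3 lower (Angptl4, Lmf1 and Fabp3; 20.6% of all genes). The ranges did not overlap for 8 of the 10, against 43.5% of all genes. In knockouts 8 of 10 were called, where 51.1% of all genes were. Here 5 were higher (Lpl, Cd36, Fabp4, Slc27a2 and Vldlr; 21.8% of all genes) and 3 lower (Gpihbp1, Angptl4 and Slc27a1; 29.4% of all genes), and 8 of 10 had no overlap, against 55.8%.

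Lpl and its inhibitor moved in opposite directions. Lpl was 1027 to 1573 scaled FPKM in room-temperature controls and 638 to 675 in thermoneutral controls, a log2 fold change of 1.01 (SE 0.14, 95% interval 0.70 to 1.32, limma adjusted p = 0.000498). In knockouts it was 879 to 1118 and 644 to 756 (0.60, SE 0.14, limma adjusted p = 0.00412). Angptl4 was 31.3 to 129 scaled FPKM in room-temperature controls and 295 to 406 in thermoneutral controls, a log2 fold change of -2.19 (SE 0.41, 95% interval -3.07 to -1.32, limma adjusted p = 0.00175). In knockouts it was 69.5 to 156 and 290 to 430 (-1.54, SE 0.41, limma adjusted p = 0.00685). The ranges of these 4 pairs of groups did not overlap. The ratio of Angptl4 to Lpl within a library was 0.0199 to 0.115 in room-temperature controls and 0.437 to 0.636 in thermoneutral controls. It was 0.0638 to 0.158 and 0.397 to 0.639 in the knockouts.

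Gpihbp1 was on the side of the inhibitor. Its log2 fold change was -0.69 in controls (95% interval -1.25 to -0.12, limma adjusted p = 0.0534), which did not pass, and -0.75 in knockouts (95% interval -1.31 to -0.18, limma adjusted p = 0.03), which did. Without the room-temperature control at 116 scaled FPKM the value in controls was -0.95 (limma adjusted p = 0.00276). The value in controls also passed with FPKM as deposited (-0.79, limma adjusted p = 0.0414), equal nuclear totals (-0.71, 0.0473), sample weights (-0.89, 0.00103) and without the controls with R identifiers (-1.0, 0.0043). In knockouts the call was lost with no filter on low values (-0.75, limma adjusted p = 0.055) and in 5 of 7 fits that left out a library: without room-temperature knockout 2, 3 or 4 (-0.71, -0.69 and -0.66) or thermoneutral knockout 1 or 2 (-0.67 and -0.73). Beside this, 4 of 12 endothelial markers were lower at room temperature in controls, against 20.6% of all genes. In knockouts 3 of 12 were lower, against 29.4% of all genes, and 0 were higher in either genotype. With 12 genes, these counts lay near the shares for all genes. The part of endothelial content in the Gpihbp1 values was not tested. The ratio of Gpihbp1 to Lpl was 0.0296 to 0.0838 in room-temperature controls and 0.140 to 0.193 in thermoneutral controls.

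Vldlr had the highest log2 fold changes of the 10 on the side of room temperature: 1.11 in controls (SE 0.22, limma adjusted p = 0.00265) and 1.78 in knockouts (SE 0.22, limma adjusted p = 8.41e-05). Slc27a2 rose by 1.68 in knockouts (SE 0.25, limma adjusted p = 0.000229). In controls its log2 fold change was 0.48 (95% interval -0.06 to 1.02, limma adjusted p = 0.143), although the 4 room-temperature controls (75.6 to 101 scaled FPKM) lay above the 3 thermoneutral ones (59.2 to 61.5). This value passed with only the 2 groups compared (0.48, limma adjusted p = 0.0247) and with sample weights (0.63, 0.0225). Fabp4 rose by 0.56 in controls (limma adjusted p = 0.0197) and by 0.86 in knockouts (limma adjusted p = 0.00114). The value in controls did not pass without thermoneutral control 1 (0.45, limma adjusted p = 0.0879) or room-temperature control 1 (0.51, 0.0567), nor with no filter on low values or under quantile normalization (-0.01). In knockouts it did not pass with no filter (0.86, limma adjusted p = 0.119) or under quantile normalization (0.56, 0.0571).

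Cd36 rose by 0.53 in controls (limma adjusted p = 0.0135) and by 0.43 in knockouts (limma adjusted p = 0.0257). The call in controls was lost without thermoneutral control 1 (0.48, limma adjusted p = 0.0527). In knockouts it was lost without room-temperature knockout 1 or 4 (0.38 and 0.39) or thermoneutral knockout 1 or 3 (0.46 and 0.38), and with FPKM as deposited (0.33, limma adjusted p = 0.0676). Fabp3 fell by 1.32 on the log2 scale in controls (SE 0.35, limma adjusted p = 0.0118), from 1085 to 1378 scaled FPKM at 30 °C to 422 to 653 at 22 °C. Without the controls with R identifiers it was -1.13 (limma adjusted p = 0.0573). In knockouts its log2 fold change was -0.37 (95% interval -1.13 to 0.39, limma adjusted p = 0.397), and -0.74 (limma adjusted p = 0.0291) without the room-temperature knockout at 1355. Lmf1 fell by 0.49 in controls (limma adjusted p = 0.0147), a call lost without thermoneutral control 2 or 3 (-0.45 and -0.43) and without the controls with R identifiers (-0.34). Its value in knockouts was -0.06 (95% interval -0.36 to 0.23). Slc27a1 fell by 0.59 in knockouts (limma adjusted p = 0.0295), a call lost without thermoneutral knockout 1 (-0.36) and without room-temperature knockout 1 or 4 (-0.57 each) and with no filter. In controls it had -0.26 (95% interval -0.70 to 0.18, limma adjusted p = 0.335). It passed there without the controls with R identifiers (-0.55, limma adjusted p = 0.0457) and with sample weights (-0.44, 0.0423).

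**Figure D3:**
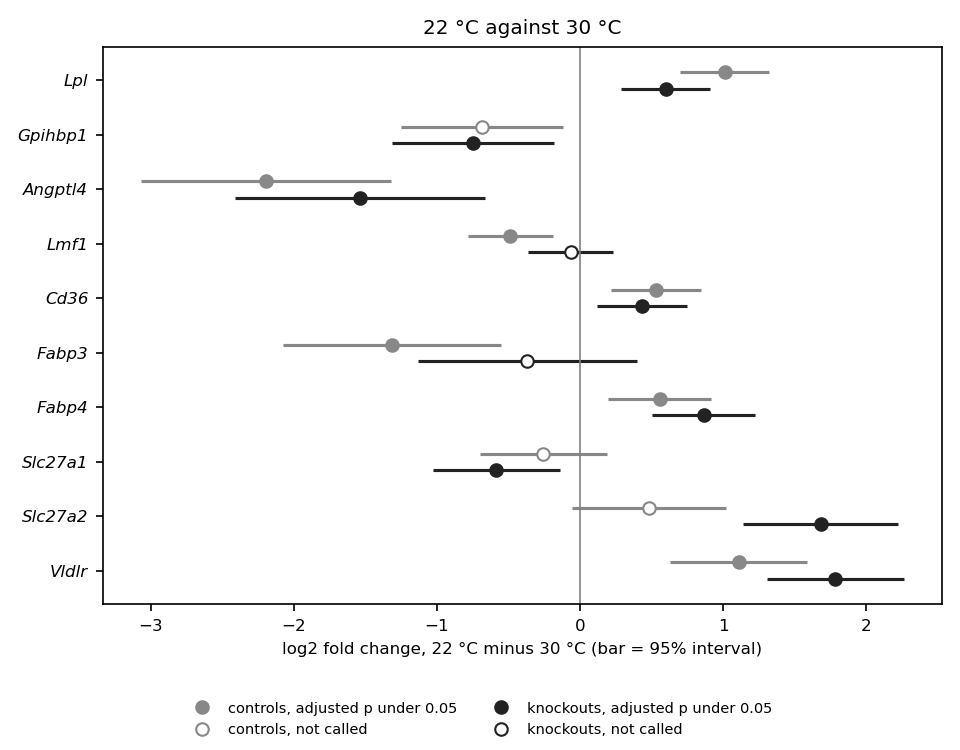
Log2 fold change of 22 °C against 30 °C for each gene in controls and in knockouts, with 95% intervals from limma; filled points have an adjusted p under 0.05. Lpl (1.01 and 0.60) and Vldlr (1.11 and 1.78) lie on the side of 22 °C in both genotypes, and Angptl4 (-2.19 and -1.54) on the side of 30 °C.

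**Figure D4:**
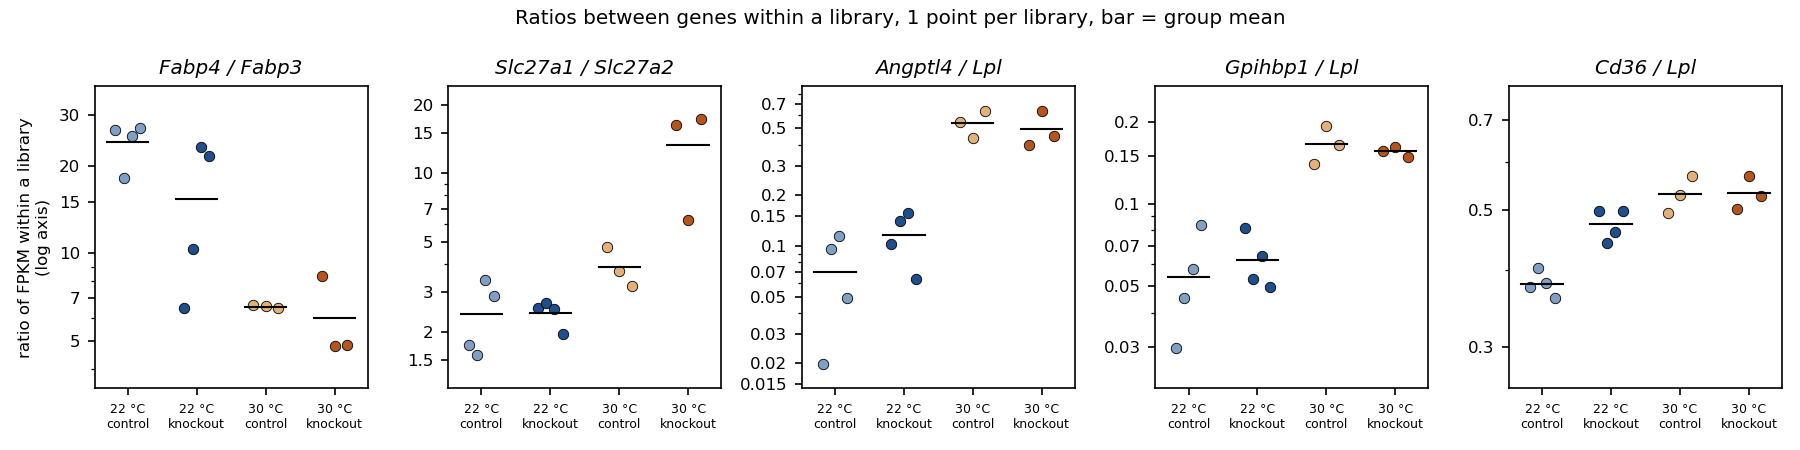
Ratios of deposited FPKM between gene pairs within each library (log axis), by group; each point is a library and each bar a group mean. The ratio of Slc27a1 to Slc27a2 is 6.25 to 17.3 in thermoneutral knockouts and at most 4.72 elsewhere. The ranges of Cd36 to Lpl do not overlap between genotypes at 22 °C. No ratio was tested.

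Other genes of the pathway were counted from 4 lists. Of all genes, 1.97% were called for the knockout at room temperature and 14.1% at thermoneutrality, where 5.28% were lower. With 6 to 13 tested genes in a list, the counts that follow lay near these shares. Among regulators of lipoprotein lipase, 13 of 16 genes were tested. At room temperature 1 was lower and 0 higher in knockouts (median log2 fold change of the list -0.01, of all genes 0.0024). At thermoneutrality 1 was lower and 1 higher (0.04, against 0.065). Apoc1, an apolipoprotein that inhibits lipoprotein lipase and uptake of lipoprotein remnants, was the lower gene at both temperatures. It had 862, 829, 532 and 698 scaled FPKM in room-temperature controls and 325, 254, 313 and 287 in knockouts (log2 fold change -1.29, limma adjusted p = 0.00641). At thermoneutrality it had 235, 286 and 272 in controls and 74.4, 58.9 and 35.8 in knockouts (-2.27, limma adjusted p = 0.000156). Sdc1, a heparan sulfate proteoglycan, rose at thermoneutrality from 3.09, 3.44 and 4.19 scaled FPKM in controls to 20.1, 6.05 and 7.17 in knockouts (1.23, limma adjusted p = 0.0188).

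Among 13 tested of 18 genes of fatty acid transport and activation, 1 was lower at room temperature (list median -0.03) and 2 were lower and 1 higher at thermoneutrality (list median 0.08). Dbi, the acyl-CoA binding protein, was lower at both temperatures. It had 2210, 2074, 2294 and 2320 scaled FPKM in room-temperature controls and 1298, 1057, 1444 and 1474 in knockouts (log2 fold change -0.77, limma adjusted p = 0.0186). At thermoneutrality it had 774, 893 and 795 in controls and 567, 380 and 394 in knockouts (-0.90, limma adjusted p = 0.00474). Acsl1, the main long-chain acyl-CoA synthetase of fat, fell at thermoneutrality from 233, 218 and 232 to 139, 132 and 118 (-0.82, limma adjusted p = 0.0381). Fabp7 was called higher there (0.79, limma adjusted p = 0.0202), at 0.981 to 2.06 scaled FPKM in knockouts and 0.254 to 0.507 in controls. It reached 1 deposited FPKM only in the thermoneutral knockouts. It thus passed the filter on low values only through the group where it was high, and its call carries no weight.

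Of 6 tested among 10 lipoprotein receptors and lipases, 0 were called at room temperature (list median -0.19) and 1 was lower at thermoneutrality (list median -0.12). This was Scarb1, a receptor for high-density lipoprotein, with 46.9, 51.5 and 52.5 scaled FPKM in controls and 36.6, 36.3 and 31.3 in knockouts (log2 fold change -0.52, limma adjusted p = 0.042). All 10 PPAR factors and partners were tested, and 1 was higher at each temperature (list medians 0.26 and -0.05). Ppargc1a, the coactivator of brown fat, rose at room temperature from 8.98, 13.3, 22.5 and 14.7 to 37.2, 20.2, 47.6 and 30.5 scaled FPKM (1.14, limma adjusted p = 0.0411), with the knockout at 20.2 under the highest control. Ppard rose at thermoneutrality from 14.2, 15.04 and 13.4 to 19.9, 19.9 and 21.8 (0.50, limma adjusted p = 0.0119). Pparg itself was not called at either temperature, although its ranges did not overlap at either. It had 213 to 244 scaled FPKM in room-temperature knockouts and 132 to 201 in controls. At thermoneutrality the knockouts were the lower group, with 92.7 to 122 against 134 to 148 in controls. Ranges did not overlap for 9.38% of all genes at room temperature and 36.8% at thermoneutrality.

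Markers of other cell types moved with genotype at thermoneutrality, where 14.1% of all genes were called and 5.28% were lower. At room temperature 1.97% of all genes were called. Of 12 macrophage markers 11 were higher in thermoneutral knockouts and 0 lower. Their summed level was 654 to 1867 scaled FPKM in knockouts and 129 to 434 in controls. At room temperature 0 of the 12 were called, with sums of 101 to 226 and 60.3 to 89.7. Trem2 and Fcgr1, among the 12, passed the filter on low values only through the thermoneutral knockouts, where they were high. Their tests there carry no weight. Of 8 adipocyte markers 3 were lower at thermoneutrality (Adipoq, Cidec and Cfd) and 2 at room temperature (Adipoq and Cidec). Their summed level was 3958 to 5262 scaled FPKM in thermoneutral knockouts and 8025 to 8600 in controls, and 4378 to 5062 against 5117 to 6912 at room temperature. Cfd made up much of these sums, with means of 1081 in knockouts and 2207 in controls at room temperature and of 1756 and 4021 at thermoneutrality. Other adipocyte markers lay on the other side at room temperature without passing. Plin1 had 826 to 896 in knockouts and 409 to 822 in controls (log2 fold change 0.44, limma adjusted p = 0.217), and Pck1 had means of 1639 and 1406 (0.27, 0.627). The endothelial sum was 898 to 986 in thermoneutral knockouts and 531 to 586 in controls, but only 1 of 12 genes, Cldn5 (log2 fold change 2.39), was called, and the list median was -0.21. None of the 12 macrophage, 12 endothelial or 12 skeletal muscle markers was at 0 in any library. Of 8 brown adipocyte markers 4 were lower at thermoneutrality, with sums of 1736 to 2659 in knockouts and 3265 to 4544 in controls, and 1 was higher at room temperature. Ucp1, Cidea and Cox7a1 made up most of these sums. Other markers of the list had higher means in thermoneutral knockouts than in controls without passing: Dio2 (8.18 and 4.43), Ppargc1a (3.98 and 3.35) and Zic1 (1.97 and 1.77). Of 6 liver markers 2 were tested and 0 called. Their sum was 171 scaled FPKM in thermoneutral knockout 1 (Alb 121) against 1.12 and 3.57 in the other 2, and 23.6 in thermoneutral control 1 against 1.32 and 2.31. Liver expresses Slc27a2, which had 19.7 in that knockout, and without that library its log2 fold change was -1.58 (limma adjusted p = 0.0142). The lower Slc27a2 and Fabp4 of thermoneutral knockouts stood beside these shifts, whose part in them was not tested.

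**Figure D5:**
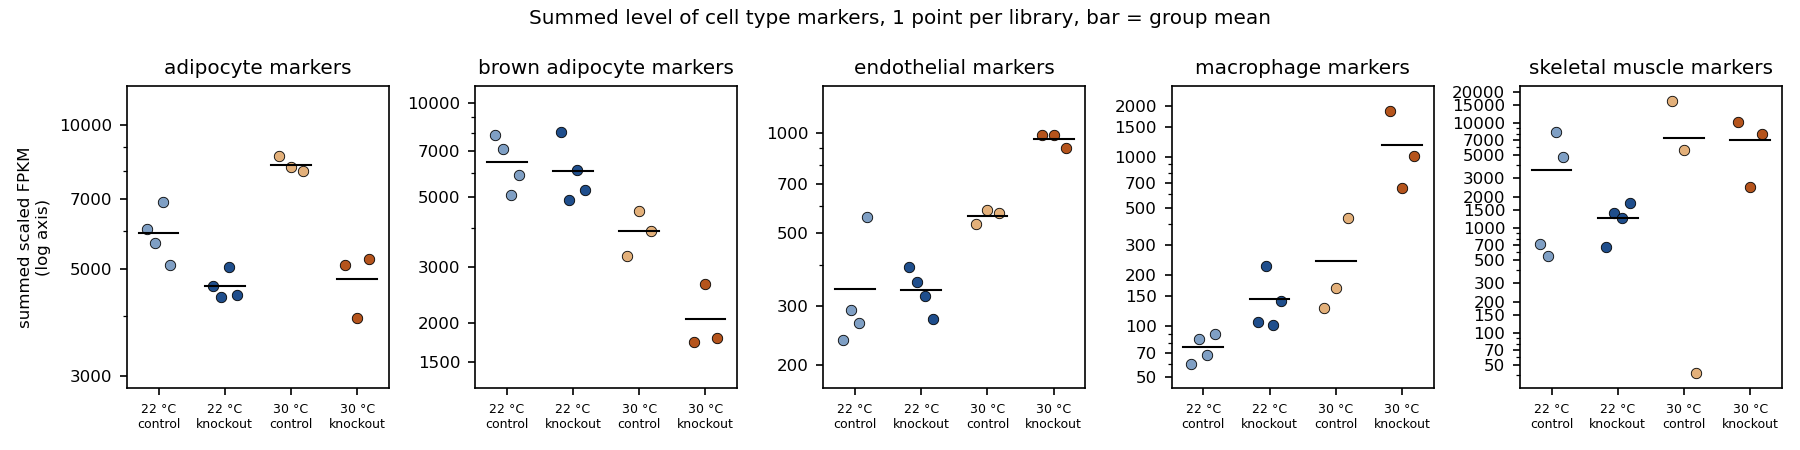
Summed scaled FPKM (log axis) of marker lists for 5 cell types in the 14 libraries; each point is a library and each bar a group mean. Macrophage sums are 654 to 1867 in thermoneutral knockouts and at most 434 in the other groups, and skeletal muscle sums differ widely within groups.

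The genes with the pattern most like 3 of the members were sought among 7731 other genes, by the root mean square difference of centred log2 values over the 14 libraries. Nearest to Lpl were Synj2bp (0.148), Ddx50 (0.152) and Dnajc21 (0.154). Nearest to Gpihbp1 were Cnn3 (0.171), Cldn15 (0.171) and Efnb1 (0.179). Nearest to Angptl4 were Gas1 (0.420), Lasp1 (0.441) and Efs (0.446). These differences are in log2 units, and the members differ in spread. The SD of the log2 values was 0.46 for Lpl, 0.50 for Gpihbp1 and 1.12 for Angptl4. The larger differences for Angptl4 therefore do not show that genes followed it less closely than Lpl.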

How the data were processed

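Gene expression was measured by RNA sequencing in 14 libraries of brown adipose tissue, and groups were taken from the genotype and housing temperature in the labels. The authors deposited FPKM values, fragments normalised to gene length and depth, in 1 column per library. Per the submitters' processing notes the build was mm9; the aligner, counting tool and use of strand are not given in the sources used here. The members and lists were chosen with earlier results of these data known.

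Symbols came from a table of Ensembl gene names, which matched 34490 of 35275 identifiers. Genes with at least 1 FPKM in at least 3 libraries were kept (13079). Each library was divided by its median ratio to the geometric mean over 10049 nuclear genes, because mitochondrial transcripts, which differ between genotypes, take up reads. All tests used log2(scaled FPKM + 1); the pseudocount of 1 understates the change of low genes. The model, with 4 group means, was fitted in limma 3.58.1 (R 4.3.3, eBayes with a trend), with Benjamini-Hochberg adjustment over all 13079 genes and a threshold of 0.05. Intervals are 95% intervals from limma. No replicate block was fitted, since identifiers pair no libraries.

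Depth was estimated from genes with 1 transcript, as the value that best turned low FPKM into whole numbers of reads. Transcript lengths came from a GENCODE annotation, which may differ from the one behind the deposited FPKM. At the chosen depth, 90.6% to 92.5% of low values fell within 0.05 of a whole number of reads (up to 5). No 2 columns were identical. Named were all members, up to 3 called genes of each pathway list per knockout comparison with the largest changes, and the 3 nearest genes in pattern to Lpl, Gpihbp1 and Angptl4 among those with a mean of at least 5 FPKM. Adipoq, Cidec, Cfd, Plin1, Pck1, Cldn5, Alb, Trem2, Fcgr1, Cidea, Cox7a1, Dio2 and Zic1 were named after their values were seen. The fit was tested on simulated reads. Plots were drawn with Python 3.11.15 and matplotlib 3.10.9. Alternatives covered the pseudocount (0.1), the filter, the scaling, the groups in the fit, the trend, sample weights, the controls with R identifiers and each library in turn.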

Additional observations from a re-analysis of the deposited data

Results flagged for a closer look

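Dixon's test at the 95% level was applied to 30 sets of 4 room-temperature values (the 10 genes and 5 ratios in both genotypes), and 3 had a library far from the others. Chance alone gives about 1 in 20 such sets. Lpl was 879 scaled FPKM in room-temperature knockout 3 and 1089 to 1118 in the other 3. Gpihbp1 was 91.0 in room-temperature knockout 1 and 53.8 to 59.0 in the others. Slc27a2 was 77.8 in room-temperature knockout 4 and 60.6 to 63.1 in the others.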

How the results depend on the processing

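The lower Slc27a2 of thermoneutral knockouts passed in all 10 alternatives (log2 fold change -1.90 to -1.29). Lpl, Angptl4 and Vldlr kept their temperature calls and directions in both genotypes in every alternative, as did Slc27a2 in knockouts. Depth was only estimated, as a total per library, and 3 or 4 libraries per group limit what could be called. No paired analysis was possible because the labels give no replicate numbers that pair libraries. Over single genes, 438 values kept direction and side of the threshold, 15 came to pass, 10 no longer passed and 27 turned direction; leaving out a library gave 378, 3, 17 and 22. Where not said otherwise, the cause of a change was not tested.

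Of the 10 genes, 1 was called for the knockout effect at room temperature with a mean filter of 5 FPKM, 1 under quantile normalization and 1 with sample weights. At thermoneutrality 1 was called with no filter, 1 with only the 2 groups compared and 4 with sample weights. Sample weights gave 1 for the interaction, and no filter gave 5 for temperature in knockouts. These are the larger shifts only. Over all alternatives the count ran from 1 to 4 for the knockout effect at thermoneutrality. It ran from 6 to 10 for temperature in controls and from 5 to 8 in knockouts. Leaving out each library gave 0 to 0 at room temperature, 2 to 2 at thermoneutrality, 0 to 1 for the interaction, 5 to 8 for temperature in controls and 5 to 7 in knockouts.

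Over all genes the knockout effect at room temperature gave 130 calls with no filter, 3248 with FPKM as deposited (3167 higher), 461 with equal nuclear totals (386 higher), 86 with 2 groups only and 906 with sample weights, and 71 to 271 leaving out a library. At thermoneutrality it gave 4571 with FPKM as deposited (4280 higher), 1223 with 2 groups only and 3652 with sample weights, and 815 to 2113 leaving out a library. The interaction gave 9 with no filter, 6 as deposited, 8 with quantile normalization, 10 with equal nuclear totals, 7 with no trend and 213 with sample weights, and 0 to 135 leaving out a library. Temperature in knockouts gave 4250 with a mean filter of 5 FPKM and 5082 to 6426 leaving out a library; in controls the latter gave 3485 to 5742.

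Directions turned for these log2 fold changes. With FPKM as deposited the room-temperature knockout effect was 0.23 for Gpihbp1, 0.26 for Lmf1, 0.29 for Cd36 and 0.0045 for Slc27a1, and the thermoneutral one 0.29 for Gpihbp1 and 0.24 for Angptl4. Equal nuclear totals gave 0.077 for Gpihbp1, 0.11 for Lmf1 and 0.13 for Cd36 at room temperature, and 0.15 for Gpihbp1 and 0.094 for Angptl4 at thermoneutrality. Quantile normalization gave 0.0039 for Gpihbp1, 0.24 for Cd36 and 2.05 for Fabp4 at room temperature, 0.062 for Gpihbp1, 0.26 for Angptl4 and 1.49 for Fabp4 at thermoneutrality, and temperature effects of -0.0080 for Fabp4 in controls and 0.071 for Lmf1 in knockouts. For Fabp4 this follows from the ranks that the method uses. Sample weights gave 0.026 for Gpihbp1 and -0.065 for Vldlr at room temperature, -0.045 for Slc27a1 at thermoneutrality and 0.13 for the Gpihbp1 interaction. The 2 groups alone gave -0.017 for Slc27a1 at thermoneutrality. Without the controls with R identifiers, Gpihbp1 had 0.25 and Vldlr -0.14 at room temperature, and the Gpihbp1 interaction was 0.25.

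Leaving out each library, the room-temperature knockout effect ran from -0.24 to 0.20 for Gpihbp1, -0.13 to 0.079 for Cd36, -0.091 to 0.55 for Fabp3 and -0.094 to 0.049 for Lmf1. The thermoneutral one ran from -0.12 to 0.13 for Gpihbp1, -0.24 to 0.052 for Angptl4 and -0.19 to 0.19 for Slc27a1. The Gpihbp1 interaction ran from -0.23 to 0.21, and the temperature effect on Lmf1 in knockouts from -0.15 to 0.0021.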
